A study of Mus musculus with 13 samples.

Results

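The long stretches of acetylated chromatin in 9 mouse melanoma cell lines are described here. Peaks of the 9 H3K27ac lists that overlapped or touched were joined, and joined autosomal regions of at least 10 kb were kept, so the domains were chosen by their width in these same lists. There were 568 such domains among 58221 joined autosomal regions (0.976%), and they held 8.47 of 106 Mb of joined autosomal sequence (7.97%). Widths and covered lengths are therefore given as a description with no test. A domain was called broad in a line when peaks of that line covered at least 10 kb of it. By that measure 45 domains were broad in all 9 lines, 177 in 1 line, 310 in 2 to 8 lines and 36 in no single line.

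H3K27ac is acetylation of histone H3 at lysine 27, which is laid down by the acetyltransferases p300 and CBP at active promoters and enhancers. Most acetylated regions are short, flanking one start site or enhancer. Runs of closely spaced acetylated enhancers, often called super-enhancers or broad domains, tend to lie at genes that define a cell type. In melanocytes these include the transcription factors MITF, SOX10 and PAX3 and the enzymes of melanin synthesis.

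Every line was established from a melanoma of a mouse that carried the transgene Tyr::NRAS(Q61K), which drives oncogenic NRAS from tyrosinase regulatory sequence, was heterozygous for Cdkn2a and had both alleles of the E-cadherin gene Cdh1 flanked by loxP sites. Lines labelled ΔEcad came from mice that also carried Tyr::CreA, which deletes Cdh1 in the melanocyte lineage, and lines labelled Ecad came from mice without it. The groups were male Ecad (Ma_1007 and Ma_1181), female Ecad (Ma_1014 and Ma_1039), male ΔEcad (Ma_1062 and Ma_1456) and female ΔEcad (Ma_1057, Ma_1064 and Ma_1069). All were grown in serum-containing medium with no treatment, each is represented by 1 peak list, and p-values therefore measure the spread between lines. The question behind the comparisons is whether loss of E-cadherin acts differently in females and males. Both transgenes contain Tyr sequence, so reads from them and from the Tyr gene itself cannot be told apart.

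The lists held 20741 to 41663 peaks and covered 29.1 to 66.2 Mb of the autosomes. A peak list carries no read counts, so the depth of each library is unknown, and a place without a peak is not shown to lack the mark. Line Ma_1007 stood apart: it had the longest list, it was broad at 371 domains where the other 8 lines were broad at 134 to 246, and without it 441 domains were found. Promoters of the melanocyte markers Mitf, Sox10, Dct, Tyr, Pmel and Mlana had a peak within 1 kb of a start in all 9 lines, and that of Tyrp1 in 6. No line had a peak at the 3 keratinocyte or the 3 endothelial marker genes. Of the leukocyte markers Cd68 had one in 4 lines, and of the fibroblast markers Pdgfra had one in 1 line.

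The sequences printed first are the promoters of 4 pigment genes that lay in domains, because they share a short word. Among genes of the fixed pigment list with a start in a domain, 6 had a promoter that overlapped the domain in the RefSeq set used. A promoter was the 250 bases before the start (build GRCm38.p6). Pmel and Mlana also had a start in a domain, but no promoter of theirs entered this count, and the reason was not examined. The core of the E-box bound by MITF, TCATGTG or TCACGTG on either strand, occurred in 4 of these 6 promoters. It occurred in 32 of 349 promoters that overlapped any domain (9.17%) and in 6.26% of the 31396 RefSeq promoters of autosomal genes. The word, which lies within the 8-letter MITF words searched below, was chosen after values of these data had been seen. The 4 promoters follow, 5′ to 3′ on the strand of the gene, with the word in capitals.
Tyr promoter, chr7:87493513-87493762, minus strand: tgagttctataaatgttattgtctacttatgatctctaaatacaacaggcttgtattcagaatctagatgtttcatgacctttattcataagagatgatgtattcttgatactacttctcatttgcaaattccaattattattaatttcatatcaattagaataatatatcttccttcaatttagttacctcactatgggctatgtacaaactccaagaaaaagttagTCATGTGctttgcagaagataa
Tyrp1 promoter, chr4:80833963-80834212, plus strand: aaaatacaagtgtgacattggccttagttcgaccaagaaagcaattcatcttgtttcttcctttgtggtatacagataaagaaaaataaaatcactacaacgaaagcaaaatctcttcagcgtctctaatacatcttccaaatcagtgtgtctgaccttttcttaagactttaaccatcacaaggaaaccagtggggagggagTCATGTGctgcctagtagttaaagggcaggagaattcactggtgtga
Dct promoter, chr14:118052247-118052496, minus strand: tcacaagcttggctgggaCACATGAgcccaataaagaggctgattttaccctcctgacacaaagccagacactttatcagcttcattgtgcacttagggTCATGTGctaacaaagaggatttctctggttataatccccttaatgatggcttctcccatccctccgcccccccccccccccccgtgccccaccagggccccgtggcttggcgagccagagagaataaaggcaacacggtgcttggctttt
Slc24a5 promoter, chr2:125067877-125068126, plus strand: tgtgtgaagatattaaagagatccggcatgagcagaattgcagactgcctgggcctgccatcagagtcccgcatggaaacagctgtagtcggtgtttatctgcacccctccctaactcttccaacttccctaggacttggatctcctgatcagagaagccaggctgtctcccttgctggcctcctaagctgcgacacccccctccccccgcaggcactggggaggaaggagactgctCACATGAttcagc

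In the Tyr promoter the word began 22 bases before the start, and in the Tyrp1 promoter 47 bases before it. The Dct promoter held it at 2 places, on the opposite strand 232 bases and on the strand of the gene 151 bases before the start. In the Slc24a5 promoter it stood on the opposite strand, 13 bases before the start. The Gpnmb and Trpm1 promoters did not hold these letters, nor did the 8 promoters of Mitf, Tfap2a, Tfap2b and Zeb2 that overlapped domains. No promoter of Sox10 or Pax3 entered the count. A match of letters is a description and does not show that the factor was bound.

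The next sequences are those around the strongest summit, by the deposited −log10 q, of 5 domains that the results turn on. Those of Pax3, Sox10 and Mitf are shown because these domains were broad in all 9 lines, and those of Nav2 and Fam53b because these domains differed most between the female ΔEcad lines and the others. They are given on the plus strand of GRCm38 with letters of the searched motifs in capitals.
Pax3, chr1:78157895-78158095, plus strand: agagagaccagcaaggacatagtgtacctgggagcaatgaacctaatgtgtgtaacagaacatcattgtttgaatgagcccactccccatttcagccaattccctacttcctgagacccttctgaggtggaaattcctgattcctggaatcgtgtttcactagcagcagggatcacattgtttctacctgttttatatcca
Sox10, chr15:79166288-79166488, plus strand: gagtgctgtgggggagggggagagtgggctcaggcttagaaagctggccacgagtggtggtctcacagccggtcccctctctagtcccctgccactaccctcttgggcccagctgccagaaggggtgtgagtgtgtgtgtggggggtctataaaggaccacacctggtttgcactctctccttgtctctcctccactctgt
Mitf, chr6:97993479-97993679, plus strand: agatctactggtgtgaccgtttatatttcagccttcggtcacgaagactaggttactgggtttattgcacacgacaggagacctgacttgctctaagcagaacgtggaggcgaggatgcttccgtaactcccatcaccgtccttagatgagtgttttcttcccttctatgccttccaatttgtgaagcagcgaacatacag
Nav2, chr7:48898075-48898275, plus strand: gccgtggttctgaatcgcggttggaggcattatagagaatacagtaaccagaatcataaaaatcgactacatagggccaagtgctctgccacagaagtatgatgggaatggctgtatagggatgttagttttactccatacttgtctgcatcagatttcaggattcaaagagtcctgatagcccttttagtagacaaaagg
Fam53b, chr7:132794202-132794402, plus strand: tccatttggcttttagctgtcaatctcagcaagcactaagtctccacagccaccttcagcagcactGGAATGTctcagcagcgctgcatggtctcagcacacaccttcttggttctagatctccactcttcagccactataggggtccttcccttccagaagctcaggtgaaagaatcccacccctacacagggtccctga

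None of the 5 windows touched an annotated exon. The Pax3 window lay in the gene, 38843 bp downstream of its start. The Sox10 window lay 1148 bp upstream of the Sox10 start, and the Mitf window 1658 bp downstream of a Mitf start. The Nav2 window lay 10541 bp upstream of the nearest Nav2 start, and the Fam53b window 7367 bp upstream of the nearest Fam53b start but within the annotated bodies of Fam53b and Fgfr2. Only the Fam53b window held a searched motif, the TEAD word GGAATGT at base 67.

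To describe the sequence of all domains, windows centred on the strongest summit of each region were searched on both strands for the words of 8 factor families. The SOX words ACAAAGG or ACAATGG were in 10.2% of domain windows and in 11.1% of windows over all autosomal regions. The TFAP2 word GCCNNNGGC was in 10.4% and 10.0%, the AP-1 word TGAGTCA in 5.81% and 5.61%, and the TEAD word in 4.75% and 4.39%. The TCF/LEF word ATCAAAG was in 3.52% and 4.72%, and the MITF words TCACGTGA or TCATGTGA in 1.41% and 1.94%. The CRE word TGACGTCA was in 0.176% and 0.254%, and the ETS word CCGGAAGT in 0 of 568 and in 0.754%. The median GC content of the windows was 48.8% in domains, 48.2% in regions of 5 to 10 kb and 46.2% over all regions. Repeats made up a median of 19.8% of the bases of a domain and at most 48.4%, whereas 20 of the 2472 regions of 5 to 10 kb were more than 50% repeat.

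Domains ranged from 10.007 to 69.061 kb, with a median of 12.8 kb and quartiles of 11.2 and 16.1 kb. There were 178 of at least 15 kb, 72 of at least 20 kb and 18 of at least 30 kb, and the median width of all joined autosomal regions was 1299 bp. The threshold cut through a continuum. The 3 narrowest domains, at Elmo2, Dpys and Msi2, were 10.007, 10.015 and 10.016 kb wide, and the 3 widest regions left out, at Akap2/Pakap, Ubtd1 and Npas3, were 9.991, 9.983 and 9.956 kb wide.

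Few domains were one unbroken peak in many lines. Of 1788 pairs of a domain and a line in which it was broad, 42.9% held a single peak of that line. A domain held a median of 2 peaks of a list and at most 13. A single peak of at least 10 kb was found in all 9 lines at 12 domains, in 1 line at 268 and in no line at 55. A line that is broad at a domain has a peak in it, so presence must be shared at least as widely as breadth. All 9 lists had a peak in 469 domains (82.6%), against 65.7% of regions of 5 to 10 kb and 13.8% of all joined autosomal regions. Wider joined regions have more room for a peak of each list, so these shares are not matched for width.

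**Figure D1:**
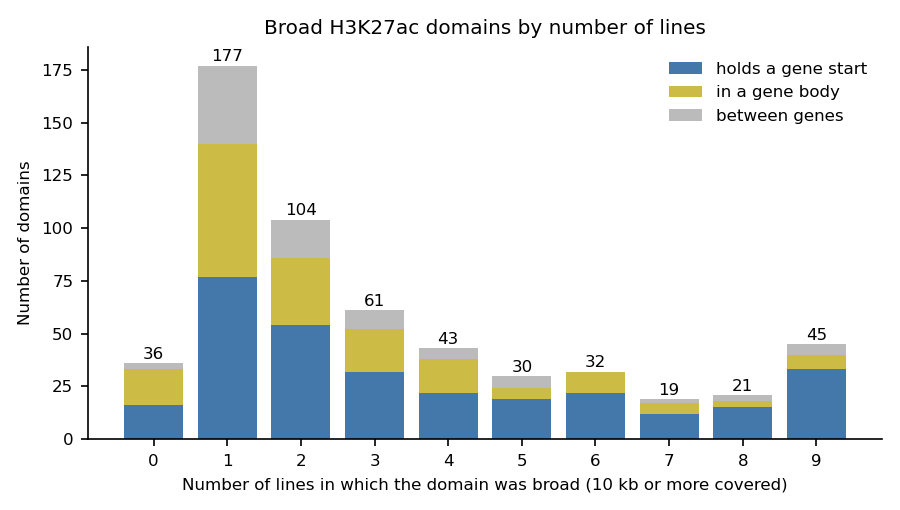
Number of domains (vertical axis) against the number of lines, 0 to 9, in which at least 10 kb of the domain was covered (horizontal axis), with bars divided by whether the domain held a protein-coding gene start, lay in a gene body or lay between genes. The tallest bar is 177 domains broad in 1 line, the counts fall to 19 at 7 lines, and 45 domains were broad in all 9.

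Domains tended to hold gene starts. A start of a protein-coding gene (GENCODE M21) lay in 302 domains (53.2%), 178 lay in gene bodies (31.3%) and 88 between genes (15.5%). Among regions of 5 to 10 kb, 37.3% held a start, and of all regions 17.7%. Wider regions have more room for a start, so these shares are not matched for width. Among the 45 domains broad in all 9 lines 33 held a start (73.3%) and the median width was 26.5 kb, and among the 177 broad in 1 line 43.5% held a start and the median width was 11.4 kb. Domains held starts of 319 protein-coding genes and overlapped 460, and 35 held a whole gene.

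Most domains with a start reached further into the gene than away from it, as did most regions of 5 to 10 kb. For genes with several annotated starts these distances depend on the start taken. In the 273 domains with starts of a single protein-coding gene, the domain reached a median of 2.64 kb upstream and 10.3 kb downstream of the start, and it reached further downstream in 230 (84.2%). Regions of 5 to 10 kb with a single such gene (827) reached 1.62 kb upstream and 4.62 kb downstream, and 75.9% reached further downstream. At 10 kb downstream of the start 54.2% of domains were still present, whereas 9.16% were present at 10 kb upstream.

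**Figure D2:**
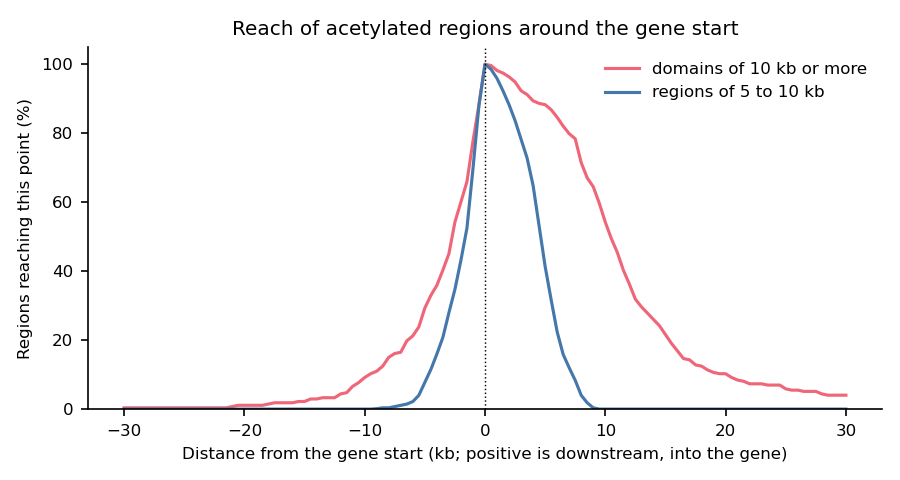
Share of regions (vertical axis, percent) that reach a given distance from the gene start (horizontal axis, kb, positive into the gene), for the 273 domains and the 827 regions of 5 to 10 kb that hold starts of 1 protein-coding gene. The domain curve is skewed to the downstream side, where 54.2% of domains reach 10 kb, against 9.16% upstream.

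Neighbouring domains on a chromosome lay a median of 1527 kb apart, and some lay much closer. Of 549 pairs of neighbours 12 were at most 1 kb apart, 48 at most 10 kb and 106 at most 50 kb. Chromosome 2 had most domains (57), followed by chromosome 7 (53), and chromosome 19 had fewest (11). These counts are not matched for the length of the chromosome or its number of genes. At Rapgef4 a gap of 318 bp separated domains of 37.5 and 44.0 kb, and at 2010111I01Rik a gap of 355 bp separated domains of 32.6 and 38.4 kb.

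Of 10 listed melanocyte transcription factors 6 had a start in a domain, against 319 of 20780 protein-coding autosomal genes (1.54%) and 3.21% of those with a start in any joined region. Lef1, Sox5, Foxd3 and Irf4 had none. The gene lists used here and below were chosen with earlier results of these data known, so such shares are descriptions. The widest domain of all lay at Pax3, a paired-box factor of the neural crest and melanocyte lineage, at chr1:78134641-78203701 and was 69.1 kb wide. It held the start and 65.2% of the gene body. Its covered length was 61.7 kb in Ma_1007, 69.1 in Ma_1181, 62.3 in Ma_1014, 61.6 in Ma_1039, 62.7 in Ma_1062, 60.9 in Ma_1456, 55.2 in Ma_1057, 53.9 in Ma_1064 and 58.6 in Ma_1069. The female ΔEcad lines were the 3 lowest, yet no line covered less than 53.9 kb, more than the width of every other domain but one. Here and below, such an order is common: the 3 female ΔEcad lines covered less than all others in 15.5% of domains. The share was 14.6% in regions of 5 to 10 kb and 6.16% in all joined autosomal regions.

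Pax3 had further domains around it. The next, chr1:78107463-78133657, lay further along the gene body and was 26.2 kb wide. It was covered over 12.6 to 25.1 kb in the 6 other lines and over 6.20 to 6.25 kb in the 3 female ΔEcad lines. A domain of 21.8 kb between genes had Pax3 as the nearest start and was broad in 5 lines. It was covered over 8.19 to 9.42 kb in the female ΔEcad lines and 9.84 to 21.8 kb in the others. Every ΔEcad line there (8.19 to 13.1 kb) was also below every Ecad line (14.2 to 21.8 kb). A domain of 11.7 kb was broad in Ma_1007 alone.

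Sox10, which encodes an SRY-related factor that activates Mitf and pigment genes, lay whole in a domain of 27.5 kb at chr15:79150705-79178199 that also held a start of Polr2f. The covered length was 26.7 kb in Ma_1007, 26.4 in Ma_1181, 27.4 in Ma_1014, 27.4 in Ma_1039, 22.4 in Ma_1062, 26.2 in Ma_1456, 17.0 in Ma_1057, 13.95 in Ma_1064 and 19.9 in Ma_1069. Again the female ΔEcad lines were lowest and did not overlap the other 6. Every ΔEcad line (13.95 to 26.2 kb) was also below every Ecad line (26.4 to 27.4 kb), though Ma_1456 and Ma_1181 differed little. The latter order held in 4.23% of domains, 6.96% of regions of 5 to 10 kb and 2.84% of all joined autosomal regions. A second domain, chr15:79190550-79225952, lay between genes on the Pick1 side and was broad in all lines, at 22.0 to 35.1 kb.

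Mitf, the basic helix-loop-helix factor that directs melanocyte identity, had the most uniform domain of the list. At chr6:97989235-98003911 (14.7 kb) each of the 9 lines had exactly 1 peak, of 11.7 kb in Ma_1062 to 14.6 kb in Ma_1181, with a median of 12.9 kb. The groups overlapped fully there. A neighbouring domain of 10.2 kb in the Mitf gene body was broad in no line. There the female ΔEcad lines covered 4.96 to 5.56 kb and the others 6.78 to 9.52 kb, without overlap.

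The other 3 factors were less uniform. Zeb2, a zinc-finger repressor of the neural crest, had a domain of 20.9 kb at chr2:45099024-45119966 covered over 14.003 to 17.0 kb in the female ΔEcad lines and 17.4 to 20.7 kb in the rest. Tfap2a, a factor of neural crest and skin, had a domain of 17.9 kb that was broad in 6 lines, and its covered length ranged from 4.70 kb in Ma_1069 to 17.5 kb in Ma_1014. The domain of Tfap2b, its relative, was present in essentially 2 lines. It was covered over 13.4 kb in Ma_1057 and 15.5 kb in Ma_1069, over 1.67 kb in Ma_1456 and 0.413 kb in Ma_1007, and had no peak in the other 5.

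Of 13 listed autosomal pigment genes 8 had a start in a domain, and most of these domains varied between lines. Tyr, the rate-limiting enzyme of melanin synthesis, was the exception. Its domain at chr7:87474964-87502350 (27.4 kb) was covered over 22.7 kb in Ma_1007, 24.9 in Ma_1181, 20.7 in Ma_1014, 21.5 in Ma_1039, 20.9 in Ma_1062, 24.9 in Ma_1456, 22.2 in Ma_1057, 22.4 in Ma_1064 and 27.3 in Ma_1069. No group stood apart at Tyr, and the share of the transgenes named above in these reads was not tested.

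Dct, the dopachrome tautomerase that acts after Tyr, had a domain of 20.9 kb at chr14:118037198-118058111. Its covered length was 12.1 kb in Ma_1007, 18.95 in Ma_1181, 20.5 in Ma_1014, 20.5 in Ma_1039, 17.2 in Ma_1062, 15.5 in Ma_1456, 7.90 in Ma_1057, 7.38 in Ma_1064 and 8.43 in Ma_1069. It was therefore broad in the 6 other lines and in none of the female ΔEcad lines.

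The melanosome matrix protein gene Pmel shared a domain of 15.8 kb with Cdk2 and Rab5b at chr10:128695290-128711109. It was covered over 12.2 to 15.6 kb in the Ecad lines and in Ma_1456 (14.3 kb), over 4.84 kb in Ma_1062 and over 2.06 to 4.30 kb in the female ΔEcad lines. Mlana, a melanosome protein gene wholly inside a domain of 16.7 kb at chr19:29695695-29712385, went the other way in part of that group. There 14.9 kb was covered in Ma_1057 and 16.5 kb in Ma_1069 but 8.49 kb in Ma_1064, and 4.78 to 8.80 kb in the other 6 lines.

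Tyrp1, an enzyme of eumelanin synthesis, followed no group. Its domain of 23.0 kb at chr4:80826131-80849106 was covered over 23.0 kb in Ma_1456, 14.3 in Ma_1014, 13.6 in Ma_1039 and 11.1 in Ma_1064, and over at most 3.04 kb in the other 5 lines, of which Ma_1181 and Ma_1069 had no peak. Gpnmb, a melanosome glycoprotein gene, had a domain of 23.6 kb that was broad in 8 lines without a single peak of 10 kb in any. Slc24a5, a melanosome ion exchanger gene, was covered over 10.2 to 12.9 kb in the female ΔEcad lines, 13.6 kb in Ma_1007 and 10.9 kb in Ma_1456, and over 1.41 to 6.95 kb in the rest. The domain at Trpm1, which encodes a cation channel, was 10.2 kb wide and was broad in Ma_1181 and Ma_1069.

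**Figure D3:**
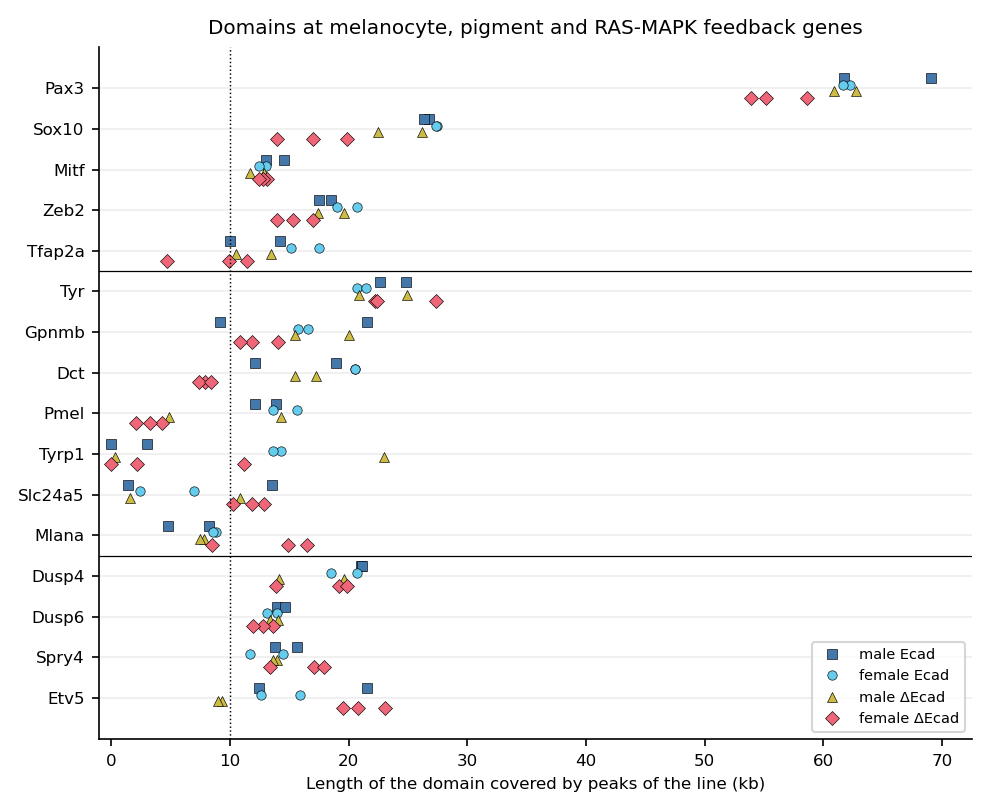
Length of a domain covered by peaks of each line (horizontal axis, kb) for domains with a start of 16 listed genes: 5 transcription factors, 7 pigment genes and 4 RAS-MAPK feedback genes, from top to bottom. Each point is 1 line with its sex and genotype as the marker, and the dotted line is 10 kb. Pax3 exceeds 53.9 kb in all lines, Mitf stays at 11.7 to 14.6 kb, and Dct is at 7.38 to 8.43 kb in female ΔEcad lines and at 12.1 kb or more elsewhere.

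Feedback genes of the RAS-MAPK pathway, which oncogenic NRAS activates, had starts in domains in 4 of 11 cases. Dusp4 and Dusp6 encode phosphatases that inactivate ERK. The domain that held the whole of Dusp4 (21.9 kb) was covered over 13.9 to 21.1 kb and that of Dusp6 (15.0 kb) over 11.9 to 14.6 kb, each broad in all 9 lines. Spry4, an inhibitor of receptor signalling to RAS, had a domain of 18.7 kb covered over 11.7 to 17.9 kb, also broad in all lines. Etv5, an ETS factor induced by ERK, had a domain of 23.5 kb covered over 19.5 to 23.0 kb in the female ΔEcad lines and 9.01 to 21.6 kb in the others, so the groups overlapped through Ma_1007 alone.

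Among 10 listed receptor genes, Met, Kit and Mc1r had a start in a domain. Met, the receptor for hepatocyte growth factor, had 3 domains with an annotated start. The largest, chr6:17487530-17523603 (36.1 kb), was broad in all lines but uneven, from 14.9 kb in Ma_1057 to 36.1 kb in Ma_1007. At the domain of Kit, the receptor for stem cell factor, 12.3 kb was covered in Ma_1007, 10.04 kb in Ma_1039 and 1.19 to 9.60 kb in the others. The domain of Mc1r, the melanocortin receptor, also held starts of Tcf25 and Tubb3 and was broad in 7 lines, at 8.00 to 12.9 kb.

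For survival and cell cycle, 3 of 10 listed genes qualified. Bcl2l1, which encodes the anti-apoptotic protein BCL-XL, had a domain of 34.9 kb at chr2:152797155-152832039 with 19.98 to 34.0 kb covered and a peak of at least 10 kb in every line. Ccnd1 (cyclin D1) was broad in 3 lines and Mcl1, another BCL2 relative, in 2. The invasive and neural crest-like list had 2 of 12, Sparc and Cd44, and the YAP and TGF-β list 1 of 12, Amotl2. None of 10 AP-1 genes, 8 β-catenin feedback genes, 9 housekeeping genes or 6 chromatin genes had a start in a domain. The share over all protein-coding autosomal genes was 1.54%, so counts of 0 in lists this short do not set these genes apart. Of the β-catenin feedback genes only 3 had a start in any joined region. The long non-coding RNAs Malat1 and Neat1 each overlapped a domain, of 13.6 kb broad in 4 lines and of 22.9 kb broad in 9.

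Other domains among the widest or most constant belong to varied genes. Mpzl1, which encodes a cell-surface glycoprotein, had a domain of 33.6 kb with 22.1 to 33.4 kb covered. The domain of Ciao2a and Snx1, a sorting nexin of endosomes, was 40.7 kb wide with 19.2 to 40.4 kb covered. Ubl3 had a domain of 36.004 kb that was broad in all lines and lowest in Ma_1062 at 15.3 kb. Bend6 and Dst shared a domain of 19.7 kb that varied little, from 17.0 to 19.5 kb. Between genes, a domain of 27.2 kb at chr3:61394680-61421862 was covered over 18.9 to 24.2 kb and one of 27.6 kb at chr15:85661684-85689321, with Ppara as the nearest gene start, over 16.9 to 27.6 kb.

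Abhd2, a hydrolase gene, had the widest domain after that of Pax3, 57.4 kb at chr7:79268905-79326345, and differed widely between lines. The covered length was 57.1 kb in Ma_1007, 25.7 in Ma_1181, 2.50 in Ma_1014, 25.3 in Ma_1039, 14.1 in Ma_1062, 9.20 in Ma_1456, 56.8 in Ma_1057, 50.7 in Ma_1064 and 56.1 in Ma_1069. The female ΔEcad lines and Ma_1007 were high, and the other 5 lines lay at or below 25.7 kb.

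Domains broad in 1 line came most often from the longest list: 83 of 177 were broad in Ma_1007 alone, 23 in Ma_1456, 19 in Ma_1069, 17 in Ma_1181, 12 in Ma_1014, 9 in Ma_1039, 5 each in Ma_1057 and Ma_1064 and 4 in Ma_1062. The widest for each line shows what such domains look like. Cytip was covered over 21.9 kb in Ma_1007 and at most 3.61 kb elsewhere. Nav3 was covered over 18.8 kb in Ma_1456 and at most 8.76 kb elsewhere, Susd6 over 17.3 kb in Ma_1064 and at most 7.26 kb elsewhere, and Dlc1 over 15.2 kb in Ma_1069 and at most 7.81 kb elsewhere. Mob3b was covered over 18.5 kb in Ma_1181 and at most 9.59 kb elsewhere. In the other 4 lines the widest such domain only just passed the limit, at Poldip3 in Ma_1014 (10.3 kb), Hmga1 and AI413582 in Ma_1039 (10.5 kb), Amdhd2 and Atp6v0c in Ma_1062 (10.3 kb) and a stretch 124 kb from Myc in Ma_1057 (11.5 kb).

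The covered length of each domain was next compared between groups of lines, by counting domains in which every line of one group covered more than every line of the other. Covered length enters the rule, so these counts are descriptions. The 3 female ΔEcad lines covered less than all 6 other lines in 88 domains (15.5% of domains, against 6.16% of all joined autosomal regions and 14.6% of regions of 5 to 10 kb). They covered more in 8 domains (1.41%, against 1.2% and 2.35%). The lower share was thus near that of regions of 5 to 10 kb, and the higher share was below it. The female ΔEcad lists were also among the shorter ones, covering 29.1 to 39.0 Mb against 36.7 to 66.2 Mb in the others. With lists cut to the same number of peaks, 85 of 564 domains were lower (15.1%, against 6.56% of all joined autosomal regions). There 12 were higher (2.13%, against 1.58%). The part of covered length in these counts was not tested. With the full lists, 6 of the 29 domains with a start of a listed gene were in the lower set (20.7%). They were those of Pax3, Sox10, Zeb2, Dct, Pmel and Amotl2, and 0 were in the higher set.

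The 5 largest differences upward were at Nav2, Dgkg, Ldlrad3, Tnfrsf19 and Sec14l5. Nav2 encodes a neuron navigator protein of the cytoskeleton. Its domain at chr7:48890513-48909435 was covered over 18.9 kb in Ma_1057, 14.1 in Ma_1064 and 13.7 in Ma_1069, over 6.97 kb in Ma_1007 and 1.99 kb in Ma_1062, and had no peak in the other 4 lines. The mean was 15.6 ± 2.90 kb (SD, n = 3) in female ΔEcad and 1.49 ± 2.80 kb (SD, n = 6) in the others.

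Dgkg, a diacylglycerol kinase gene whose domain lay 14.1 kb from an Etv5 start, was covered over 16.6 to 18.7 kb in the female ΔEcad lines, 13.8 kb in Ma_1007, 8.00 kb in Ma_1181 and 1.78 to 2.58 kb in the remaining 4. At Ldlrad3 the ranges were 10.5 to 17.6 kb and 2.12 to 5.86 kb, and at Sec14l5 11.3 to 12.3 kb and 1.91 to 5.65 kb. At Tnfrsf19, a receptor of the tumour necrosis factor family, they were 7.50 to 17.7 kb and 0 to 6.91 kb, with Ma_1064 and Ma_1007 nearest to each other.

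The 5 largest differences downward were at Fam53b, Rapgef4, Fxyd3, Ampd3 and the gene body domain of Pax3. At Fam53b (chr7:132789083-132815726, 26.6 kb) the covered length was 17.0 kb in Ma_1007, 17.6 in Ma_1181, 26.6 in Ma_1014, 25.3 in Ma_1039, 20.02 in Ma_1062 and 12.8 in Ma_1456. It was 1.51 kb in Ma_1057, 4.54 in Ma_1064 and 2.53 in Ma_1069. The groups differed by 17.0 kb in their means, 2.86 ± 1.54 kb (SD, n = 3) against 19.9 ± 5.29 kb (SD, n = 6).

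Fxyd3, which encodes a small membrane protein of the FXYD family, was covered over 1.76 to 2.87 kb in the female ΔEcad lines and 8.48 to 18.9 kb in the others. For the 44.0 kb domain of Rapgef4, a cAMP-activated exchange factor gene, the ranges were 12.2 to 21.04 kb and 23.5 to 44.0 kb. For Ampd3, an AMP deaminase gene, they were 3.54 to 8.96 kb and 10.4 to 30.6 kb.

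**Figure D4:**
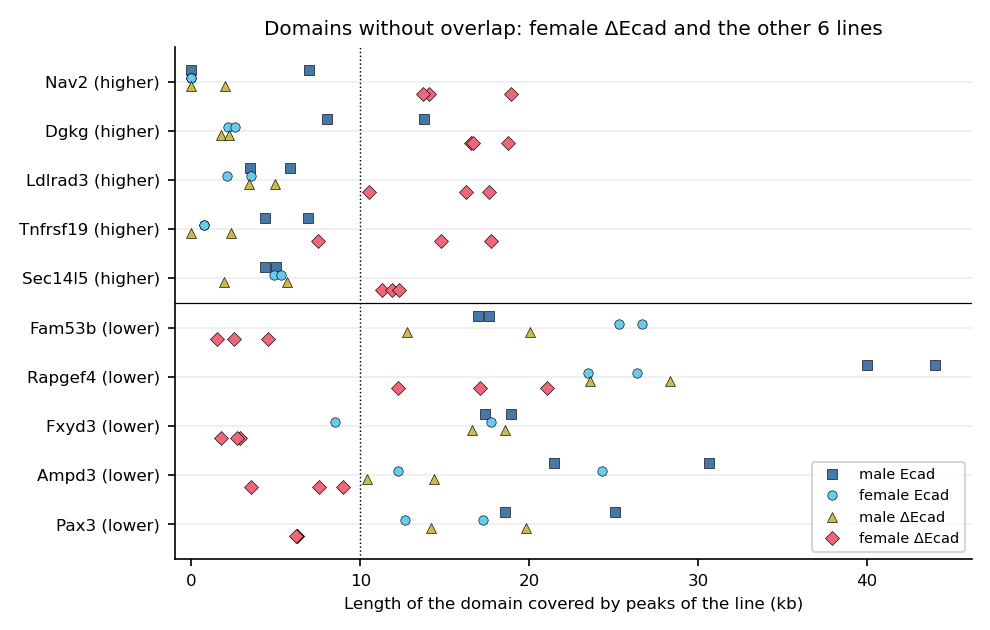
Length covered by peaks of each line (horizontal axis, kb) in the 10 domains with the largest differences between the 3 female ΔEcad lines and the other 6, 5 higher and 5 lower. Each point is 1 line and the dotted line is 10 kb. At Nav2 the female ΔEcad lines sit at 13.7 to 18.9 kb and the others at 0 to 6.97 kb, and at Fam53b at 1.51 to 4.54 kb and 12.8 to 26.6 kb.

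When the 5 ΔEcad lines were set against the 4 Ecad lines, 24 domains were covered less in every ΔEcad line (4.23%, against 2.84% of all regions and 6.96% of regions of 5 to 10 kb). In the other direction the count was 1 (0.176%, against 0.0636% and 0.162%). That domain held a start of Uchl4, a ubiquitin hydrolase gene, at 7.70 to 10.8 kb against 4.87 to 5.78 kb. The largest difference downward was at Ciao2a and Snx1, where the ΔEcad lines covered 19.2 to 33.0 kb and the Ecad lines 34.7 to 40.4 kb. Next came Sema3b, a secreted semaphorin gene (1.98 to 4.64 kb against 7.20 to 12.3 kb), Mob3b (0 to 7.42 kb against 8.65 to 18.5 kb), Cyb5a, which encodes cytochrome b5 (3.44 to 13.0 kb against 13.7 to 17.5 kb), and Midn (4.05 to 13.2 kb against 14.1 to 18.2 kb).

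Between the sexes, 14 domains were covered less in every female line than in every male line (2.46%, against 1.76% of all regions and 2.06% of regions of 5 to 10 kb) and 1 was covered more (0.176%, against 0.12% and 0.324%). The latter was Mlana, at 8.49 to 16.5 kb in females and 4.78 to 8.25 kb in males. Of the former, the 37.5 kb domain of Rapgef4 was covered over 15.3 to 29.3 kb in females and 31.0 to 37.5 kb in males. Arhgap39 had 2 such domains, at 13.3 to 21.1 kb against 22.4 to 25.6 kb and at 2.94 to 7.22 kb against 9.08 to 13.3 kb. A domain near Ccny was covered over 0 to 1.44 kb against 1.71 to 11.1 kb.

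Within each sex, ΔEcad and Ecad lines were also compared by the direction in which covered length did not overlap. In 29 domains every ΔEcad line covered more than every Ecad line in females and less in males (5.11%, against 1.24% of all regions and 4.33% of regions of 5 to 10 kb). The reverse held in 17 domains (2.99%, against 1.73% and 4.73%). Directions were thus opposite in the sexes in 46 domains (8.1%, against 2.97% and 9.06%). The difference between the sexes was not tested.

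A measure in which no line chose its own domains was obtained by choosing domains from 8 lists and measuring the ninth. Each line was thus scored on its own set, of 441 domains for Ma_1007 and 522 to 561 for the others. Those other sets include domains that Ma_1007 made wide. Sets for Ecad lines were also chosen with fewer Ecad lists than sets for ΔEcad lines. The scores are therefore not independent of one another, and the permutation test takes no account of this. Each line was scored by the percentage of the length of such domains that its own peaks covered. The Ecad lines covered 77.1% (Ma_1007), 55.4% (Ma_1181), 56.4% (Ma_1014) and 65.5% (Ma_1039), and the ΔEcad lines 54.9% (Ma_1062), 53.4% (Ma_1456), 52.8% (Ma_1057), 52.2% (Ma_1064) and 45.5% (Ma_1069). All 5 ΔEcad lines lay below all 4 Ecad lines, though Ma_1062 and Ma_1181 differed little. The means were 51.8 ± 3.65% (SD, n = 5) and 63.6 ± 10.1% (SD, n = 4), a difference of -11.8 percentage points (exact permutation test, two-sided, p = 0.0159, the smallest that 126 splits allow). After Benjamini-Hochberg adjustment over the 9 tests run (3 measures in 3 contrasts) p was 0.0536, so it did not pass. Counting splits by the absolute difference in place of doubling the smaller tail gave an exact permutation p of 0.00794 and an adjusted p of 0.0357. That way of counting, also given below, was chosen after seeing the data. Without Ma_1007 the difference was -9.00 points, and with lists cut to the same number of peaks it was -11.2 points (adjusted p = 0.0714, permutation). That cut does not make the covered lengths of the lists equal.

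For the 3 female ΔEcad lines against the other 6 the difference in held-out coverage was -10.3 points (exact permutation p = 0.0238, the smallest that 84 splits allow, adjusted 0.0536, and 0.0833 and 0.202 by the absolute difference). Between female and male lines it was -5.72 points (exact permutation p = 0.429, adjusted 0.429), and -0.560 points without Ma_1007. The share of each list's own covered length that fell in domains chosen without it, which allows for the length of the list, was 7.55% to 13.1% and went the other way. It was 11.6 ± 1.78% (SD, n = 5) in ΔEcad and 10.1 ± 1.85% (SD, n = 4) in Ecad lines, with overlapping groups (exact permutation p = 0.286, adjusted 0.367). In the other 2 contrasts the differences were 2.04 points (female ΔEcad against the others, exact permutation p = 0.0952, adjusted 0.171) and 1.90 points (female against male, exact permutation p = 0.143, adjusted 0.214). Without Ma_1007, which had the lowest share, the 3 differences were 0.477 (ΔEcad against Ecad), 1.19 and 1.01 points. Without Ma_1039 the ΔEcad against Ecad difference was 2.25 points.

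Peak height was the last measure. The labels list 1 input for each combination of sex and genotype, and which input served as control for which list is not given in the sources used here, so a part of the control in differences between groups was not tested. The deposited fold enrichment of a peak, its height over local background, had a median of 9.43 to 20.5 over the 9 lines in the domains and of 6.83 to 9.21 outside them. Wider peaks tend to be higher peaks, so the level of this ratio in 1 line is a description, and the ratio was compared between lines. The domains here were those of all 9 lists, so each line helped to choose the domains on which it was scored. The tests of this ratio are therefore not independent of the choice of domains. The ratio of the 2 medians was 3.00 in Ma_1007, 1.69 in Ma_1181, 1.79 in Ma_1014, 1.85 in Ma_1039, 1.60 in Ma_1062, 1.44 in Ma_1456, 1.36 in Ma_1057, 1.37 in Ma_1064 and 1.36 in Ma_1069. The ratio was lower in each ΔEcad line than in each Ecad line. The means were 1.42 ± 0.106 (SD, n = 5) and 2.08 ± 0.616 (SD, n = 4), a difference of -0.659 (exact permutation p = 0.0159, adjusted 0.0536, and 0.00794 and 0.0357 by the absolute difference). Leaving out Ma_1007 gave -0.536, choosing the domains without the line measured gave -0.515, and joining peaks up to 1 kb apart gave -0.216 (adjusted p = 0.107, permutation). For female ΔEcad against the others the difference was -0.537 (exact permutation p = 0.0238, adjusted 0.0536, and 0.107 and 0.202 by the absolute difference) and for female against male -0.389 (exact permutation p = 0.397, adjusted 0.429). The latter was -0.0681 without Ma_1007 and -0.658 without Ma_1456. By the doubled tail none of the 9 tests passed an adjusted threshold of 0.05.

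**Figure D5:**
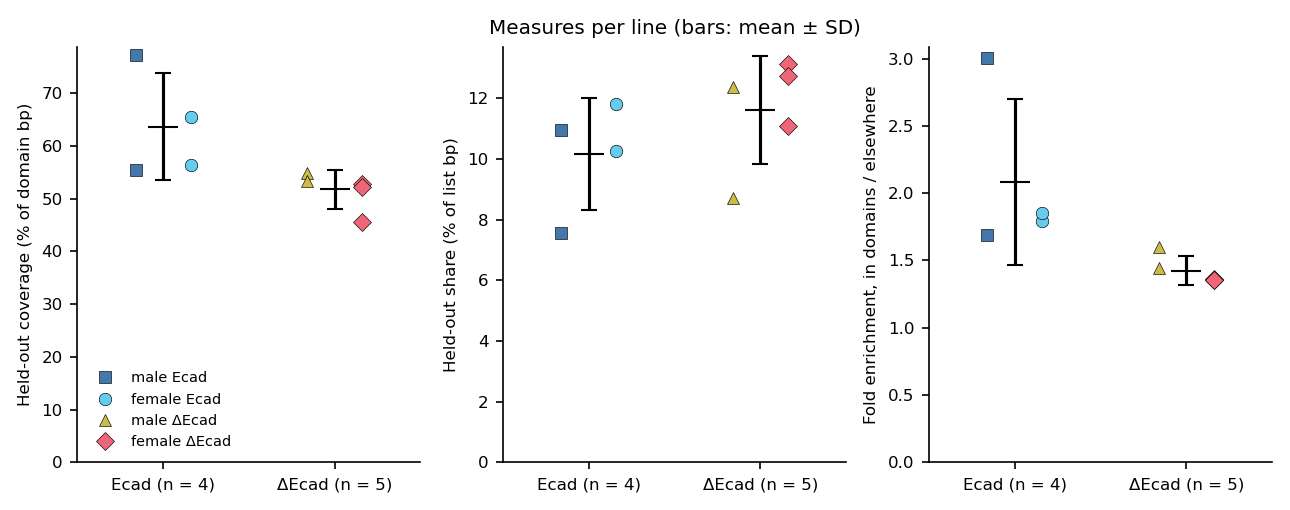
The 3 measures per line for the 4 Ecad and 5 ΔEcad lines: held-out coverage of domains (percent), held-out share of the list (percent) and the ratio of median fold enrichment in domains to that elsewhere. Points are lines, with sex as in the key, and bars are mean ± SD. Coverage is 45.5% to 54.9% in ΔEcad and 55.4% to 77.1% in Ecad lines, the share overlaps between groups, and the ratio is 1.36 to 1.60 and 1.69 to 3.00.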

How the data were processed

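H3K27ac ChIP-seq was performed on 9 lines. The submitters' processing notes name Bowtie2 2.4.5, MACS2 2.2.7.1, deepTools 3.5.1.0.0 and build GRCm38 (mm10), and the calling settings are not given in the sources used here. The deposited peak lists give for each peak a score, a fold enrichment (a ratio over local background), −log10 p-value and −log10 q-value, and a summit offset, with a lowest −log10 q of 5.00037. The 4 inputs were not analysed here. No counts are held in the lists, so depth and counting intervals could not be given.

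Overlapping or touching peaks were joined and autosomal regions of at least 10 kb kept. Genes came from GENCODE M21 and sequences from RefSeq GRCm38.p6. Groups were taken from the labels. Differences of means over lines were tested by exact permutation over all splits (two-sided, double the smaller tail) with Benjamini-Hochberg adjustment over 9 tests, after a check on simulated data. Covered length was compared by counts with no test. Named domains were the 10 widest, the 10 broad in all lines with the highest lowest covered length, the 5 largest differences without overlap for each contrast and direction, the widest broad in each line alone, the 3 on either side of 10 kb and those with starts of listed genes, and some domains that this rule names are not reported here. Members and lists were chosen with earlier results of these data known. Alternatives were joining across 1 kb, the stronger part of each list, lists cut to the same number of peaks, other definitions of broad and leaving out each line. The absolute-difference p and domains chosen without the line were alternatives chosen after seeing the data. Python 3.11.15, numpy 2.4.6, pandas 2.3.3, scipy 1.17.1, matplotlib 3.10.9 and pyfaidx 0.9.0.4 were used.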

Additional observations from a re-analysis of the deposited data

Results flagged for a closer look

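Of 25 checks for a line far from the rest of its group 8 were positive, 7 of them for Ma_1007. Chance gives about 1 in 20 for a single check, but these checks reuse the same lines in nested groups, and most rest on covered length or on domains chosen with the line included, so the counts cannot be set against that rate. It was broad at 371 domains, where the next of the male lines had 196 and the next of the lines other than female ΔEcad 246. It covered 81.8% of the bases of the domains (next male line 57.9%) and 77.1% of domains chosen without it (next male line 55.4%). Its fold enrichment ratio was 3.00 (2.397 on domains chosen without it), against 1.85 for the next of the Ecad lines and of the lines other than female ΔEcad, and 1.69 for the next male line. Among the ΔEcad lines Ma_1069 was far below the others in held-out coverage, at 45.5% against 52.2%.

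At 3 of 35 named domains checked, every ΔEcad line lay on one side of the Ecad lines in females and on the other side in males, and the difference between the sexes was not tested. The same held at 46 of all 568 domains (8.1%), against 9.06% of regions of 5 to 10 kb and 2.97% of all joined autosomal regions. At Abhd2 the ΔEcad minus Ecad difference in mean covered length was 40.6 kb in females and -29.7 kb in males, a gap of 70.4 kb. At Dgkg it was 15.0 and -8.88 kb, a gap of 23.8 kb, and at Tnfrsf19 12.6 and -4.48 kb, a gap of 17.1 kb. Dgkg and Tnfrsf19 were named because every female ΔEcad line covered more than all other lines, so their female direction was fixed by that choice. The male Ecad values at all 3 include Ma_1007.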

How the results depend on the processing

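No paired analysis was possible because each list comes from a different cell line and the labels give no pairs. Over the comparisons, 63 values under other settings and 152 with 1 line left out kept their direction and side of the threshold or stayed within 1.5 times, 10 and 19 moved, 2 became stronger and 0 reversed, and all 44 and 198 values of named domains were kept. None of the main tests passed by the doubled tail, and fewer lines raise the smallest possible p. A kept side of the threshold with 1 line left out therefore says little. The named domains here were picked for their large differences, which makes a kept direction likely. Joining across 1 kb gave 828 domains, of which 149 were broad in no line, and 2 and 41 were higher and lower in every ΔEcad line. Lists cut to the same number of peaks gave 2 domains higher in every female line. Calling a domain broad by 1 peak of 10 kb gave 12 broad in all lines, 268 in 1 and 55 in none, and by 50% covered 84, 34 and 0. The p by the absolute difference was chosen after seeing the data. By it the ΔEcad minus Ecad contrasts of coverage (-11.8 points) and fold enrichment ratio (-0.659) passed, with adjusted exact permutation p = 0.0357.

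With 1 line left out the number of domains was 441 (without Ma_1007) to 561, domains broad in all lines 42 to 52, in 1 line 141 to 194 and in no line 23 (without Ma_1181) to 37. Domains higher in every female ΔEcad line were 8 to 31 (highest without Ma_1064, and moved also without Ma_1007, Ma_1181 or Ma_1069) and lower 78 to 130. Domains higher in every ΔEcad line were 0 (without Ma_1064) to 5 (without Ma_1007, and moved also without Ma_1062, Ma_1456 or Ma_1069) and lower 25 to 66 (highest without Ma_1181, and moved also without Ma_1007, Ma_1014, Ma_1062 or Ma_1456). Domains higher in every female line were 1 to 14 (without Ma_1007) and lower 15 to 36 (without Ma_1456, and moved also without Ma_1039 or Ma_1062). With fewer lines fewer values must not overlap, so by construction these counts can rise. The ΔEcad minus Ecad difference in coverage was -14.6 to -9.00 points and in the ratio -0.894 to -0.536, with adjusted p of 0.0804 to 0.129 by permutation. The cause of the other moves was not tested, and unknown depth limits every covered length.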

Other observations

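Outside the autosomes 3 regions of at least 10 kb were found, all on the X chromosome. The one at Grpr, which encodes the receptor for gastrin-releasing peptide, was covered over 8.80 kb in Ma_1057, 18.9 kb in Ma_1064 and 19.9 kb in Ma_1069, and had no peak in the other 6 lines. Ap1s2, a clathrin adaptor gene, was covered over 12.3 to 13.4 kb in the female ΔEcad lines, 9.21 and 12.8 kb in the male ΔEcad lines and 0.441 to 3.58 kb in the Ecad lines. At Arhgap6 the values ran from 1.64 kb in Ma_1069 to 25.5 kb in Ma_1064 and followed no group.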
